A study of Mus musculus with 42 samples.

Results

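Pol II occupancy and H3K27ac were described at 8 genes of the Atf4 stress response, out of 21924 protein-coding genes for which values were computed. The genes were chosen by symbol as Atf4 itself and a set of well-known targets or partners of it, namely Atf5, Ddit3, Chac1, Trib3, Asns, Sesn2 and Ppp1r15a. The rule uses no measured value, but the genes were chosen with earlier results of these data known. Their values beside those of all genes are therefore a description. All 8 were matched in the mm10 annotation, and all 8 passed the filter on low values for both antibodies in every comparison. The cells were bone marrow-derived macrophages from male C57Bl6/J mice of 6 to 12 weeks, grown for 7 days in L929-conditioned medium. Wild-type (WT) littermates were set against Nur77-deficient mice (KO). These carry a whole-body deletion of Nr4a1, the gene of the nuclear receptor Nur77, which was made with Cre under a human cytomegalovirus promoter. The article describes KO mice without Cre, whereas the genotype label of the KO libraries reads cre, and whether Cre had a part was not tested. Cells of both genotypes were left untreated (0 h) or given 100 ng/ml of lipopolysaccharide (LPS), a bacterial cell wall component, for 1 or 18 h. Each of the 6 groups had 3 chromatin immunoprecipitation sequencing (ChIP-seq) libraries for RNA polymerase II (Pol II), 3 for H3K27ac, the acetylated form of histone H3 that marks promoters and enhancers in use, and 1 input library without antibody. The article's ChIP-seq methods speak of biological replicates, but neither they nor the labels say whether replicates were separate animals or cultures. The p-values thus measure the spread between libraries, which may be technical.

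Atf4 encodes a transcription factor of the integrated stress response. Kinases that sense amino acid lack, misfolded protein in the endoplasmic reticulum, viral RNA or haem deficiency phosphorylate the initiation factor eIF2, which lowers translation in general while the Atf4 mRNA is translated more. Much of the control of Atf4 is therefore on translation, which ChIP-seq does not measure. ATF4 pairs with C/EBP proteins on composite C/EBP-ATF response elements, and its targets include further transcription factors (Atf5, and Ddit3 for CHOP), feedback inhibitors (Trib3, a pseudokinase, and Ppp1r15a, which encodes the GADD34 subunit that directs a phosphatase to eIF2) and metabolic genes (Asns for asparagine synthetase, Chac1 for an enzyme that degrades glutathione, and Sesn2 for a leucine-sensing inhibitor of mTORC1). In macrophages GADD34 is known for its part in cytokine production after pathogen sensing.

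Promoter sequences show how the target genes differ in the elements next to their starts. Each RefSeq promoter (GRCm38.p6) runs from 250 bases before to 50 bases after an annotated start, and 9 of them belonged to the 8 genes, Atf5 having 2. Of 4 motifs searched on both strands, the C/EBP-ATF response element, searched as TGATGNAA, was found in the promoters of Chac1, Trib3 and Asns, and 3.97% of all 32851 promoters held it. The cAMP response element TGACGTCA was found in the promoter of Ppp1r15a and in 1.79% of all promoters. The AP-1 motif TGANTCA was found at Ddit3, with its first base 242 bases before the start, and in 7.81% of all promoters. The Nur77 element NBRE, searched as AAAGGTCA, was in none of the 9, against 1.51% of all promoters. The promoters of Sesn2, Atf4 and Atf5 held none of these letters in this window. The 4 sequences with a C/EBP-ATF or cAMP response element are printed 5′ to 3′ on the strand of the gene, with the motif in capitals.
Chac1, chr2:119350992-119351291, plus strand: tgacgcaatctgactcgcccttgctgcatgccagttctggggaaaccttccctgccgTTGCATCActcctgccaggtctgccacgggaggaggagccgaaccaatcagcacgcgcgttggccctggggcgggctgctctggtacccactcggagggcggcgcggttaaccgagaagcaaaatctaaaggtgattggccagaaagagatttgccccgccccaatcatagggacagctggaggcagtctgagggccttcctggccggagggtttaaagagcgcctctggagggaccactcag
Trib3, chr2:152344011-152344310, minus strand: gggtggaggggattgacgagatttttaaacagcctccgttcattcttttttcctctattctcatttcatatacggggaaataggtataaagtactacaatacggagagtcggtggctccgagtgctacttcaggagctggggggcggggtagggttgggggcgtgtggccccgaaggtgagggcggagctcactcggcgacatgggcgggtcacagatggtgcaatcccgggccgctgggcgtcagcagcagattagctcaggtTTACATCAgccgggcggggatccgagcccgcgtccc
Asns, chr6:7693160-7693459, minus strand: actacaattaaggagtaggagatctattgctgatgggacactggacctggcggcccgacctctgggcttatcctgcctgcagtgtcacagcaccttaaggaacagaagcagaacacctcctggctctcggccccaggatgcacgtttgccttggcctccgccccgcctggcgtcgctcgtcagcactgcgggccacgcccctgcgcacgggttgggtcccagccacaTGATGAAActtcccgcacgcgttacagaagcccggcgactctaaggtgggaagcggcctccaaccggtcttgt
Ppp1r15a, chr7:45526219-45526518, minus strand: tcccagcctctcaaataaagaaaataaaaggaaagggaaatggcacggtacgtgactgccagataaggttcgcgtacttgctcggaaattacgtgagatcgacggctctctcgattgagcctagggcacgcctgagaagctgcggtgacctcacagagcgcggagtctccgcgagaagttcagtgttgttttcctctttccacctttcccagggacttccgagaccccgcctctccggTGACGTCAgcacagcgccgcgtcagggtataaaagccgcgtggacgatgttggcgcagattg
The first base of the motif lay 193 bases before the start at Chac1 and 23 before it at Asns, 12 before it at Ppp1r15a and at base 15 counted from the start at Trib3. At Chac1 and Trib3 the motif reads on the opposite strand. No match overlapped one of another motif. A match of letters is a description and not a measured binding site.

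Values are normalized tags, the tags of each HOMER region per 10 M tags of its library (M, 1000000 tags), shared out by overlap. Pol II was summed from 500 bp before a gene's start to 500 bp past its end, and H3K27ac within 2500 bp of its start. A 0 says that no region was found there, not that no read was. Changes are log2 differences of normalized tags + 10, which understates changes of low values, and a change was called at a limma adjusted p under 0.05 (Benjamini-Hochberg over all genes tested). Pol II libraries held 21.7 to 36.1 M tags and H3K27ac libraries 13.5 to 55.4 M, with KO deeper than WT for H3K27ac (group means of 31.6 to 40.03 against 16.1 to 22.4 M). Inputs gave 0 at Chac1 in all 6 libraries, and between 0 and 97.1 normalized tags at the other 7 genes. All 8 macrophage markers were found in every group, with summed Pol II of 25831 to 43838, and of the 4 fibroblast markers 1 was found, in KO at 1 h, with a sum of up to 6.21. Marker lists of neutrophils, B cells, T cells and erythroid cells summed to at most 45.3, 161, 190.2 and 31.7 normalized Pol II tags in a library, and to 179, 363, 18.1 and 98.2 for H3K27ac. In bulk chromatin, fewer cells of a type and less signal per cell cannot be told apart. Pol II at Nr4a1, the check of the labels, was 189, 188 and 208 in WT at 0 h against 87.8, 76.1 and 70.2 in KO (log2 change −1.22, adjusted p = 1.2e-04). At 18 h no region was found there in any KO library, and WT libraries had 0 to 7.46. At 1 h it was not lower in KO (33.5 to 39.0 against 23 to 30.4, change 0.36, adjusted p = 0.089), and H3K27ac at Nr4a1 was not called between genotypes at any time (KO mean 73.5 and WT mean 76.1 without LPS). The check thus covers the Pol II libraries at 0 h, and not those at 1 h or the H3K27ac libraries.

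Of the H3K27ac libraries, 4 of KO did not follow their groups. Across the genes found in all libraries, KO replicate 1 at 1 h correlated with WT at 1 h at r = 0.978 to 0.98, but with KO replicates 2 and 3 at 1 h at only 0.91 to 0.912. Replicates 2 and 3 correlated at 0.991 with each other and at 0.903 to 0.905 with WT at 1 h. KO replicate 1 at 18 h correlated at 0.913 to 0.914 with KO replicates 2 and 3 at 18 h, and at 0.904 and 0.905 with KO replicates 2 and 3 at 1 h. All other replicate pairs of either antibody were at 0.985 or above. No label names a batch that parts these libraries, so H3K27ac results on KO at 1 or 18 h are also given without them where the call or direction differs.

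Before LPS, Pol II was densest at Atf4 and nearly absent at Chac1. Over the body of the gene, here from 500 bp past its start to 500 bp past its end, WT at 0 h had 205 ± 32.2 normalized tags per kb at Atf4, 70.9 ± 10.96 at Ddit3, 60.8 at Ppp1r15a, 27.6 ± 16.8 at Atf5, 7.2 at Sesn2, 1.0 at Trib3 and 0.16 at Asns (means and SD, n = 3). The difference between Ddit3 and Ppp1r15a was not larger than the spread of Ddit3. Chac1 had no region over its body in any library at 0 or 1 h. At 18 h of LPS, Pol II in WT had risen at 6 of the 8 genes (Atf5, Ddit3, Chac1, Trib3, Sesn2 and Ppp1r15a), where 33.3% of all genes tested were higher and 33.3% lower. The median change of the 8 genes was 1.29, beside 0.00 for all genes tested. At 1 h the picture was mixed, with Atf5 and Ppp1r15a higher and Ddit3, Trib3, Asns and Sesn2 lower, where 18.6% of all genes were higher and 68.4% lower. Values at 1 h have to be read against this general fall, since the median of all genes moved by −0.82 on the log2 scale and that of the 8 genes by −0.50. Pol II of marker lists moved with LPS in WT too. Macrophage markers summed to 25831 to 30425 at 0 h and 41394 to 43838 at 18 h, neutrophil and progenitor markers to 15.9 to 22.6 and 5.64 to 7.63. T cell markers summed to 140 to 173 and 178 to 190.2, erythroid markers to 14.2 to 18.9 and 23.8 to 31.7. B cell sums overlapped. Their part in the LPS changes was not tested.

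**Figure D1:**
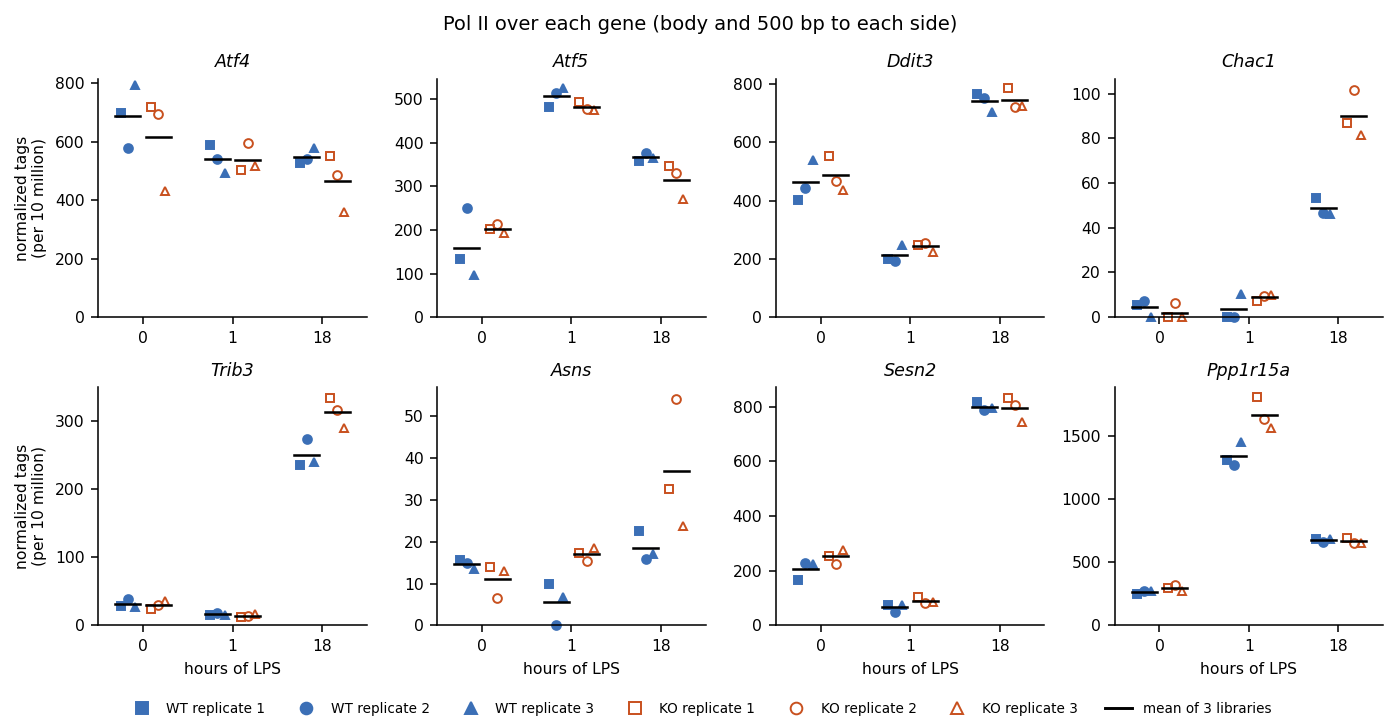
Normalized Pol II tags over each of the 8 genes (vertical axes, per 10 M tags) by hours of LPS, with 1 point per library (filled WT, open KO, 1 shape per replicate number) and a line at the mean of 3 libraries. Ppp1r15a and Atf5 are highest at 1 h, Ddit3, Chac1, Trib3 and Sesn2 at 18 h, and Atf4 stays between 358 and 792 in all 18 libraries.

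Of the transcription factors, Atf4 had no called Pol II change. Its window (chr15:80255184-80257541 with 500 bp on each side) held 698, 576 and 792 normalized tags in WT at 0 h, 586, 539 and 491 after 1 h and 527, 539 and 578 after 18 h. In KO the values were 719, 695 and 433 at 0 h, 504, 594 and 516 after 1 h and 549, 486 and 358 after 18 h. KO and WT libraries overlapped at every time. The change in WT at 1 h was −0.34 (adjusted p = 0.075), and it turned to 0.46 (adjusted p = 0.025) when each library was centred on its own median. In KO at 18 h it was −0.39 (adjusted p = 0.056). The gene lies inside 1 Pol II region of 10.4 to 21.3 kb in every library, so its value also holds the tags of its neighbours.

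Atf5 encodes a factor closely related to ATF4. Its Pol II window (chr7:44812256-44816658) held 133, 250.3 and 95.6 normalized tags in WT at 0 h, 482, 515 and 525 after 1 h and 359, 376 and 365 after 18 h. All LPS-treated WT libraries lay above all untreated ones. The rise was 1.71 ± 0.20 (SE) at 1 h (adjusted p = 4.7e-07) and 1.26 at 18 h (adjusted p = 3.4e-05). KO libraries held 201, 214 and 194 at 0 h, 493, 478 and 474.5 after 1 h and 346, 330.01 and 271 after 18 h. These rises were 1.21 (adjusted p = 3.3e-05) and 0.61 (adjusted p = 0.014), of which that at 18 h was 0.53 with an adjusted p of 0.17 without replicate 1, and 0.09 (adjusted p = 0.53) within 500 bp of the start. The window shares 19.8% of its length with Nup62 and 14.3% with Il4i1, which run on the other strand, and ChIP tags cannot be assigned between them. Pol II over those genes rose as well in WT at 1 h, by 1.33 at Nup62 and 1.15 at Il4i1. In every LPS-treated library 1 region of 37.8 to 69.5 kb covered the whole Atf5 window, so its value is that region's mean density. At 0 h the longest region over it was 14.4 to 67.7 kb, with up to 3 regions in a library. How much of the change lay at Atf5 itself cannot be read from these values.

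Ddit3 encodes CHOP, a factor of late stress and cell death. Pol II over it (chr10:127290774-127296288) was 401, 444 and 540.5 in WT at 0 h, fell to 200.3, 192 and 248.8 at 1 h and rose to 766, 751 and 702 at 18 h. KO followed the same course, with 554, 467 and 437, then 248, 255 and 225, then 788, 721 and 723. The groups did not overlap in either genotype. The WT fall at 1 h was −1.07 ± 0.11 (adjusted p = 1.2e-07) and −0.97 in KO (adjusted p = 5.1e-07), and with each library centred on its median it was −0.28 and −0.40, still called. The later rise was 0.68 (WT, adjusted p = 5.4e-05) and 0.61 (KO, adjusted p = 1.5e-04). Mbd6, whose start lies within 2500 bp, is covered by the same Pol II region and fell by 1.03 at 1 h in WT. Mars, on the other strand, overlaps 8.72% of the window and fell by 1.72. At 18 h in WT Mbd6 rose by 0.68, and the change of Mars (0.32) was not called. The longest Pol II region over the Ddit3 window was 19.1 to 35.9 kb in each library, so its values also hold the tags of its neighbours.

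Among the feedback inhibitors, Trib3 and Ppp1r15a took different courses at 1 h. Pol II at Trib3 (chr2:152337422-152344032) was 28, 38.6 and 27.8 in WT at 0 h, 15.2, 18.2 and 15.1 after 1 h and 237, 275 and 241 after 18 h. In KO it was 23.6, 30.5 and 35.5, then 12.3, 14.1 and 17.2, then 334, 317 and 289.9. The mean at 18 h was 7.96 times that at 0 h in WT and 10.5 times in KO, a log2 change of 2.66 ± 0.14 (adjusted p = 1.2e-11) and 3.03 ± 0.14 (adjusted p = 1.5e-12). The fall at 1 h was −0.66 in WT (adjusted p = 2.7e-04) and −0.70 in KO (adjusted p = 1.7e-04), but it was 0.14 and −0.12 after median centring and 0.64 and 0.36 after quantile normalization. The median gene fell by 0.82 (WT) and 0.62 (KO) at that time.

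Pol II at Ppp1r15a (chr7:45522916-45526268) was 247, 277 and 269.5 in WT at 0 h, 1311, 1276 and 1452 after 1 h and 682, 659 and 689 after 18 h. KO libraries held 297, 318 and 272, then 1812, 1639 and 1566, then 694, 657 and 653. Every library at 1 h lay above every library at 18 h, and those above every library at 0 h. At 1 h the mean was 5.09 times that at 0 h in WT (log2 change 2.30 ± 0.08, adjusted p = 1.1e-14) and 5.65 times in KO (2.46 ± 0.08, adjusted p = 4.7e-15). At 18 h the change was 1.32 in WT (adjusted p = 5.5e-11) and 1.15 in KO (adjusted p = 3.1e-10). The window overlaps Tulp2 over 28.0% and Plekha4 over 10.1% of its length, both on the other strand, and a Pol II region of 8.94 to 11.4 kb covered them together. Pol II over these neighbours rose by 1.36 and 2.74 in WT at 1 h.

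Of the metabolic genes, Chac1 and Sesn2 gained Pol II at 18 h in both genotypes. Chac1 (chr2:119351229-119354381) was listed at 5.54, 7.42 and 0 in WT at 0 h, 0, 0 and 10.5 after 1 h and 53.5, 46.5 and 46.3 after 18 h. In KO it was listed at 0, 6.11 and 0, then 7.19, 9.33 and 9.92, then 86.7, 102 and 81.4. All 6 libraries at 18 h lay above the other 12. The rise was 2.07 ± 0.26 in WT (adjusted p = 1.7e-06) and 3.09 ± 0.26 in KO. In KO only 1 of the 3 libraries at 0 h had a region, so Chac1 entered both KO comparisons through the treated libraries, where it is high, and its calls there are a description. That at 1 h was made in 8 of 11 settings and lost without replicate 1.

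Sesn2 (chr4:132492032-132510501) held 167, 229 and 224 in WT at 0 h, 74.6, 48.1 and 74.6 after 1 h and 818, 789 and 796 after 18 h. In KO it held 254, 226 and 277, then 105, 82.9 and 85.3, then 832, 808 and 742.5. The 3 times did not overlap in either genotype. The WT fall at 1 h was −1.53 ± 0.14 (adjusted p = 2.2e-08) and −1.38 in KO (adjusted p = 9.8e-08), and −0.73 and −0.81 after median centring. The rise at 18 h was 1.92 ± 0.14 in WT (adjusted p = 2.2e-09), a mean 3.87 times that at 0 h, and 1.62 in KO (adjusted p = 1.8e-08). A non-coding gene, Gm12981, overlaps 31.3% of the window.

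Asns (chr6:7675169-7693254) had low Pol II, with regions over at most 14.8% of its window. WT libraries held 15.6, 15 and 13.6 at 0 h, 9.82, 0 and 6.86 after 1 h and 22.6, 15.9 and 17.2 after 18 h. KO libraries held 13.9, 6.67 and 13.1, then 17.3, 15.5 and 18.5, then 32.6, 54.3 and 23.9. WT fell at 1 h by 0.73 (adjusted p = 0.0095), which was 0.07 after median centring and 0.37 after quantile normalization. KO rose at 18 h by 1.11 ± 0.24 (adjusted p = 5.2e-04), whereas the change in WT at 18 h was not called.

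**Figure D2:**
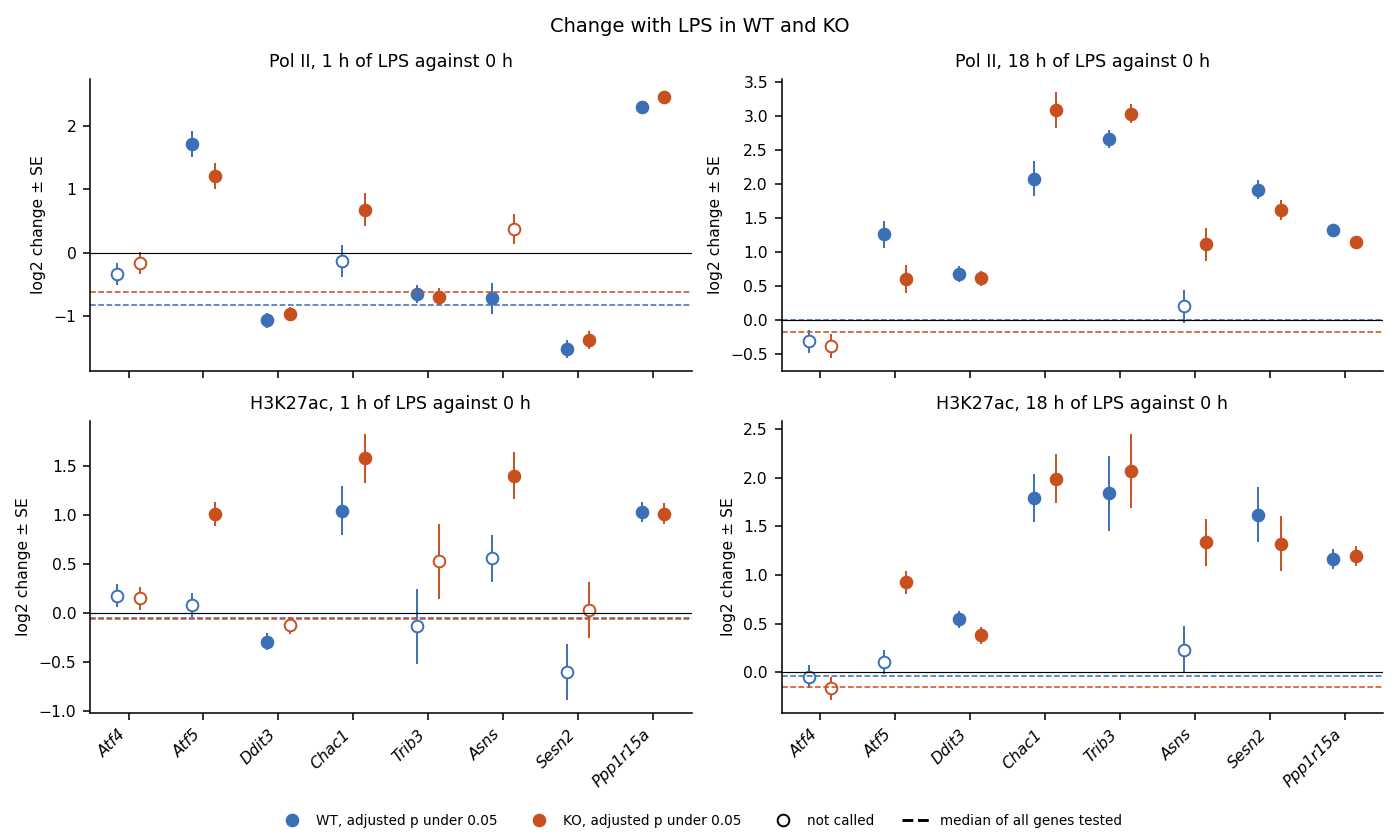
Log2 change of Pol II (top) and H3K27ac (bottom) after 1 h (left) and 18 h (right) of LPS for each of the 8 genes in WT and KO, with bars of 1 SE from the fit over 18 libraries, filled points where a change was called and dashed lines at the median of all genes tested. For Pol II, Ppp1r15a and Atf5 lead at 1 h, and Chac1, Trib3 and Sesn2 at 18 h.

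The rises at 18 h came with Pol II regions that spread from the start into the body and past the end of Trib3, Chac1 and Sesn2, with gaps in some libraries. At Sesn2 regions covered 25.3% to 42.5% of the window at 0 h, 7.6% to 12.0% at 1 h and 96.2% to 100% at 18 h. In WT the density was 73.9 normalized tags per kb within 500 bp of the start, 7.2 over the body and 7.6 from 500 to 3000 bp past the end at 0 h, against 43.2, 41.0 and 38.3 at 18 h. HOMER regions carry 1 value over their whole length, so the value at the start of a long region is that region's mean density, and how much Pol II lay at the start itself cannot be read from it. Within 500 bp of the start the change of Sesn2 at 18 h was −0.66 in WT (adjusted p = 6.5e-04) and −0.66 in KO (adjusted p = 5.7e-04), the opposite direction to the whole gene.

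At Trib3 regions covered 13.8% to 21.3% of the window at 0 h, 10.2% to 13.7% at 1 h and 73.5% to 100% at 18 h. The body density in WT went from 1.0 normalized tags per kb at 0 h to 31.4 at 18 h, and that within 500 bp of the start from 24.5 to 43.2. At Chac1 the regions found at 0 h were 0.5 kb long, and at 18 h regions reached up to 5.93 kb past the start. The body of Chac1 held 8.6 ± 2.2 normalized tags per kb in WT at 18 h and 18.6 ± 5.1 in KO (SD, n = 3). Asns kept its Pol II at the start, where WT had 11.8 at 0 h and 12.04 at 18 h and the body 0.16 and 0.36. In KO at 18 h Asns had 20.9 at the start, 0.89 over the body and 8.16 past the end.

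**Figure D3:**
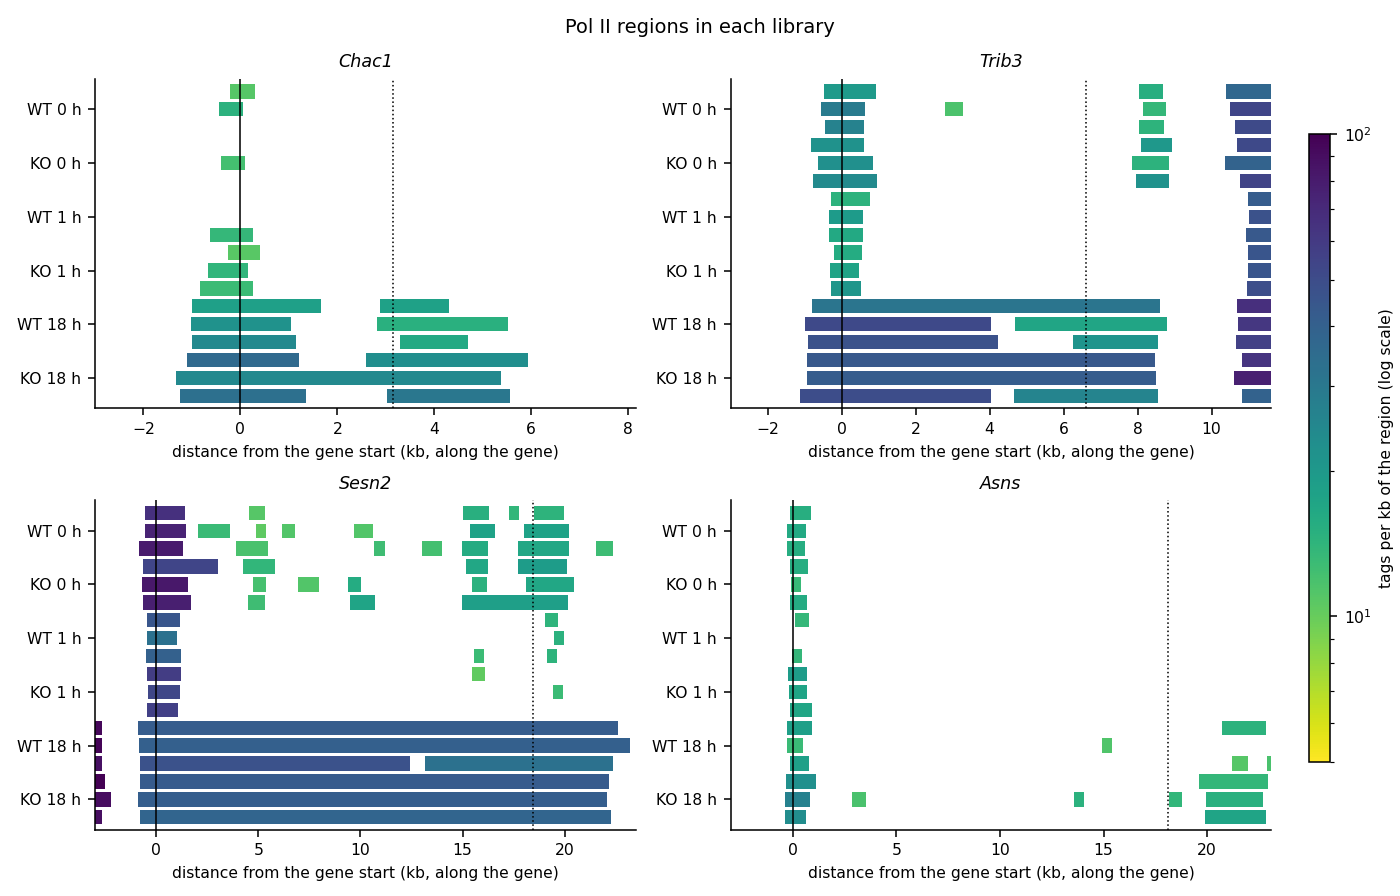
Pol II regions at Sesn2, Trib3, Chac1 and Asns, 1 row per library, drawn by distance in kb from the gene's start along its strand, with shading by normalized tags per kb on a log scale, a solid line at the start and a dotted line at the end of the gene. At 18 h the regions of Sesn2, Trib3 and Chac1 reach past the end, with gaps in some libraries, whereas at 0 and 1 h the region over the start, where one was found, ends inside the gene.

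In KO the LPS calls were Atf5, Chac1 (which entered only through the libraries at 1 h) and Ppp1r15a higher and Ddit3, Trib3 and Sesn2 lower at 1 h, where 20.6% of all genes were higher and 62.2% lower. At 18 h 7 of 8 genes had risen, Chac1 with the same limit and Atf4 being the exception, where 28% of all genes were higher and 42.1% lower. The median of all genes moved by −0.62 at 1 h and −0.18 at 18 h, beside 0.11 and 1.13 for the 8 genes. The changes at 1 and 18 h of a genotype share its 0 h libraries.

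Pol II of KO and WT was then compared at each time. At 0 h none of the 8 genes was called by limma, and Atf5 alone had an unadjusted p under 0.05 (log2 change 0.43, adjusted p = 0.25), where 6.96% of all genes were called. Its overlapping neighbours Nup62 and Il4i1 were called higher in KO at 0 h, by 0.55 (adjusted p = 0.0061) and 0.36 (adjusted p = 0.020). At 1 h Asns, Sesn2 and Ppp1r15a were higher in KO, where 45.7% of all genes were called and the median gene was 0.24 higher. The share of the 8 genes that was called is near this background. Asns, at 15.5 to 18.5 in KO and 0 to 9.82 in WT, differed by 0.86 ± 0.24 (adjusted p = 0.0082), and by 0.61 (adjusted p = 0.047) after median centring. Without replicate 3 its adjusted p was 0.051. Sesn2 differed by 0.43 (adjusted p = 0.022) and Ppp1r15a by 0.31 (adjusted p = 0.0036), with every KO library above every WT library for both. After median centring these were 0.18 (adjusted p = 0.25) and 0.06 (adjusted p = 0.53). Without replicate 1 the adjusted p was 0.066 for Sesn2 and 0.068 for Ppp1r15a, and without replicate 2 it was 0.15 and 0.064. For Sesn2 it was 0.050 without replicate 3, just past the threshold. Tulp2 and Plekha4, which share the Pol II region of Ppp1r15a, were higher in KO by 0.36 and 0.38. The summed Pol II of the 8 macrophage markers was lower in KO than in WT at 1 h (26553 to 27346 against 33671 to 35638) and at 18 h (33364 to 36527 against 41394 to 43838) and overlapped at 0 h. Sums of other marker lists were higher in KO at 1 h, with no overlap. For Pol II the 4 T cell markers summed to 163 to 188 (KO) and 136 to 138 (WT), with 2 at 0 in both genotypes, the 4 B cell markers to 59.5 to 77.8 and 41.4 to 52.96, with 2 and 3 at 0, and the 6 neutrophil and progenitor markers to 8.62 to 17 and 0 to 8.10, with 5 at 0 in both. For H3K27ac at 1 h the neutrophil and progenitor markers summed to 105 to 124 (KO) and 59.6 to 70.4 (WT), with 3 at 0 in both. At 18 h the Pol II sums of these 3 lists were lower in KO, at 169 to 177 against 178 to 190.2 for T cells, 80.1 to 82.8 against 106 to 121 for B cells and 0 against 5.64 to 7.63 for neutrophils and progenitors. The 3 erythroid markers were lower too, at 17.6 to 20.3 against 23.8 to 31.7, with 2 at 0 in both. For H3K27ac at 18 h the B cell markers summed to 159 to 242 (KO) and 325 to 363 (WT), with 2 and 3 at 0, and the macrophage markers to 5464 to 7077 and 7626 to 8091, with none at 0. The part of these in the genotype differences was not tested.

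At 18 h Chac1 was higher in KO, with 81.4 to 102 against 46.3 to 53.5 normalized tags and a change of 0.76 ± 0.26 (adjusted p = 0.046), where 21.1% of all genes were called. The mean in KO was 1.84 times that in WT. The call was made in 4 of 12 settings and lost without replicate 1 (adjusted p = 0.16) or replicate 2 (adjusted p = 0.20), with a change of 0.38 to 0.90 over all settings. For Trib3 (0.31, adjusted p = 0.12) and Asns (0.67, adjusted p = 0.056) every KO library lay above every WT library at 18 h, but neither was called. For Atf5 every KO library lay below every WT library (271 to 346 against 359 to 376). The remaining 5 genes, Atf5 among them, had no call. The difference in the LPS response between genotypes was tested as an interaction. At 1 h only Asns was called (1.09 ± 0.34, adjusted p = 0.033), where 18.5% of all genes were, and leaving out any replicate lost the call (adjusted p of 0.07 to 0.14). At 18 h limma called none of the 8, where 14.8% of all genes were called, and 3 had an unadjusted p under 0.05: Chac1 (1.01), Asns (0.91) and Atf5 (−0.65). Nup62 and Il4i1, which overlap the Atf5 window, had called interactions at 18 h of −0.77 (adjusted p = 0.0038) and −0.59 (adjusted p = 0.0051). At 1 h these were −0.62 (adjusted p = 0.014) and −0.44 (adjusted p = 0.026).

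H3K27ac near the gene starts rose at 18 h of LPS at 5 of 8 genes in WT (Ddit3, Chac1, Trib3, Sesn2 and Ppp1r15a), where 23.5% of all genes were higher and 26.4% lower. In KO it rose at 7 of 8, the same 5 with Atf5 and Asns, where 18.4% of all genes were higher and 34.2% lower. At 1 h Chac1 and Ppp1r15a were higher and Ddit3 lower in WT, where 25.3% of all genes were higher and 29.3% lower. In KO at 1 h Atf5, Chac1, Asns and Ppp1r15a were higher and 0 of the 8 were lower, where 20.4% of all genes were higher and 26.5% lower. The 8 genes had a median change at 18 h of 0.86 (WT) and 1.26 (KO), beside −0.04 and −0.15 for all genes.

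**Figure D4:**
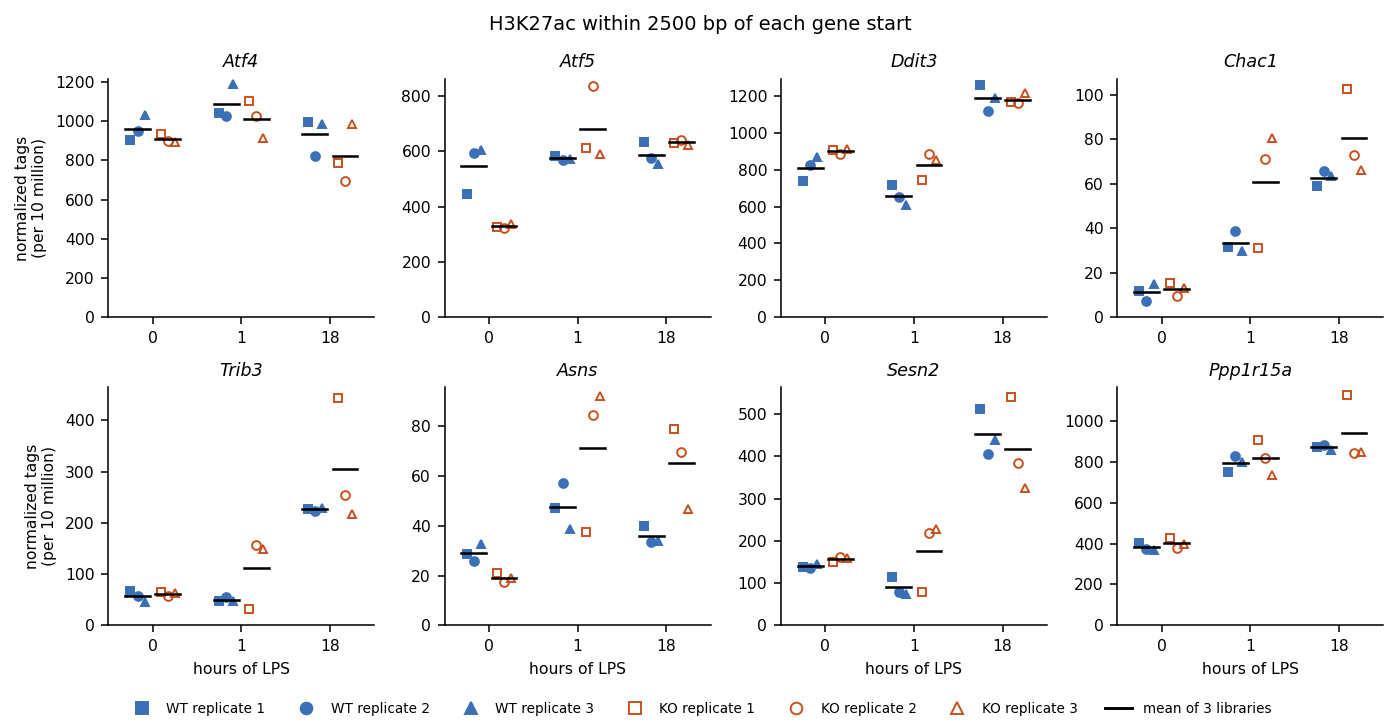
Normalized H3K27ac tags within 2500 bp of the start of each of the 8 genes (vertical axes, per 10 M tags) by hours of LPS, with 1 point per library (filled WT, open KO, 1 shape per replicate number) and a line at the mean of 3 libraries. KO replicate 1 lies apart from replicates 2 and 3 at 1 h at Trib3, Sesn2, Chac1 and Asns, and KO at Atf5 lies below WT at 0 h.

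H3K27ac at Ppp1r15a rose in both genotypes at both times. It went from 405, 375 and 369.8 in WT at 0 h to 749, 830.4 and 798 after 1 h and 872, 881 and 857 after 18 h. In KO it went from 429, 377 and 396 to 907, 819 and 736, and then to 1127, 845 and 846. The change was 1.03 (adjusted p = 7.9e-07) and 1.16 (adjusted p = 1.9e-07) in WT and 1.01 (adjusted p = 1.6e-06) and 1.20 (adjusted p = 1.2e-07) in KO at 1 and 18 h. H3K27ac thus stayed up at 18 h, when Pol II had come down from its level at 1 h. The start of Plekha4 lies in the same window. H3K27ac around it rose by 1.04 and 1.18 in WT and 1.02 and 1.20 in KO at 1 and 18 h. Chac1 rose from 11.9, 7.13 and 14.7 in WT to 31.5, 38.9 and 29.9 after 1 h and 58.9, 65.7 and 63.6 after 18 h. The change was 1.04 (adjusted p = 0.0022) and 1.79 (adjusted p = 2.1e-05), and that at 1 h was lost without replicate 2 (adjusted p = 0.098). Pol II at Chac1 had no call in WT at 1 h. In KO Chac1 held 15.3, 9.47 and 13 at 0 h, 31.1, 71.3 and 80.5 after 1 h and 102.5, 73.2 and 66.1 after 18 h (1.58, adjusted p = 9.7e-05, and 1.99, adjusted p = 6.4e-06).

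Ddit3 held 737, 826 and 871 in WT at 0 h, 716, 649.8 and 608 after 1 h and 1260.4, 1116 and 1192 after 18 h. Its fall of 0.30 at 1 h (adjusted p = 0.0088) was lost without replicate 2 or 3 (adjusted p of 0.12 and 0.25), and its rise at 18 h was 0.55 (adjusted p = 8.2e-05). KO held 907, 886 and 914 at 0 h, 746, 885 and 852 after 1 h and 1166, 1160.1 and 1216 after 18 h. At 1 h it was higher in KO by 0.33 (adjusted p = 0.021), where 18.5% of all genes were called. Without KO replicates 2 and 3 at 1 h and replicate 1 at 18 h the difference was 0.18 (adjusted p = 0.34), and median centring gave 0.24 (adjusted p = 0.085). Without replicate 2 or 3 in all groups the adjusted p was 0.47 and 0.41. H3K27ac around the start of Mbd6, which lies in the same window, was also higher in KO at 1 h, by 0.41 (adjusted p = 0.0084). At Ddit3 the rise at 18 h in KO was 0.38 (adjusted p = 0.0017).

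Trib3 and Sesn2 gained H3K27ac at 18 h in both genotypes. Trib3 held 67.7, 57 and 45.6 in WT at 0 h, 47, 55.6 and 48.1 after 1 h and 228, 224 and 228 after 18 h (log2 change 1.84, adjusted p = 8.6e-04). In KO it held 64.6, 57.6 and 63.6, then 31.5, 158 and 149, then 444, 255 and 218 (2.07 at 18 h, adjusted p = 2.9e-04). Replicate 1 of KO was below all WT libraries at 1 h and above all others at 18 h. Sesn2 held 138, 136 and 146 in WT, then 115, 79.1 and 75.4, then 512, 405 and 438 (1.62 at 18 h, adjusted p = 2.0e-04). In KO it held 150.1, 161 and 159, then 78.8, 219.7 and 229, then 540.2, 383 and 325 (1.32 at 18 h, adjusted p = 0.001). Replicate 1 again lay below the other KO replicates at 1 h and above them at 18 h.

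At 1 h the H3K27ac difference between genotypes depended on which KO libraries entered it. With all libraries, it was 0.78 at Trib3 (adjusted p = 0.15), 0.79 at Sesn2 (adjusted p = 0.062), 0.63 at Chac1 (adjusted p = 0.081) and 0.43 at Asns (adjusted p = 0.21), none of them called. Without KO replicate 1 at 1 and 18 h, these were 1.44 (adjusted p = 1.6e-07), 1.25 (adjusted p = 2.1e-06), 0.99 (adjusted p = 8.3e-05) and 0.78 (adjusted p = 6.2e-04). With KO replicate 1 as the lone KO library at 1 h, assumed to vary like the other groups, they were −0.53 (adjusted p = 0.057), −0.15 (adjusted p = 0.68), −0.07 (adjusted p = 0.87) and −0.27 (adjusted p = 0.49), and none was called. These 2 settings called 59.9% and 7.35% of all genes. The LPS change in KO at 1 h turned in the same way, from 1.18 without replicate 1 (adjusted p = 8.7e-07) to −0.79 with it alone (adjusted p = 6.4e-04) at Trib3 and from 0.49 (adjusted p = 0.0054) to −0.91 (adjusted p = 5.3e-04) at Sesn2. That of Ddit3 was −0.13 with all libraries (adjusted p = 0.25) and −0.27 with replicate 1 alone (adjusted p = 0.037). The interaction at 1 h followed too. It was not called with all libraries at Trib3 (0.66, adjusted p = 0.49), Sesn2 (0.63, adjusted p = 0.37), Chac1 (0.54, adjusted p = 0.38) or Asns (0.84, adjusted p = 0.19). Without KO replicate 1 at 1 and 18 h all 4 were called, at 1.32 (adjusted p = 1.5e-05), 1.10 (adjusted p = 2.0e-04), 0.89 (adjusted p = 0.0031) and 1.19 (adjusted p = 3.5e-04), where 47.8% of all genes were called. With replicate 1 as the lone KO library they were −0.65, −0.30, −0.17 and 0.15, none of them called. The interaction of Ddit3 was called (0.38, adjusted p = 0.014) only when replicate 1 was left out of all groups. At 18 h limma called none of the 8 genes between genotypes, where 3.24% of all genes were called, and Asns alone had an unadjusted p under 0.05. Asns held 39.9, 33.4 and 33.9 in WT and 78.6, 69.5 and 46.8 in KO (0.69, adjusted p = 0.13), and without KO replicate 1 at 1 and 18 h the difference was 0.56 (adjusted p = 0.023), where 19.1% of all genes were called. The interaction of Asns at 18 h was 1.10 (adjusted p = 0.18) with all libraries and 0.97 (adjusted p = 0.0086) in that setting, where 14.5% were called.

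**Figure D5:**
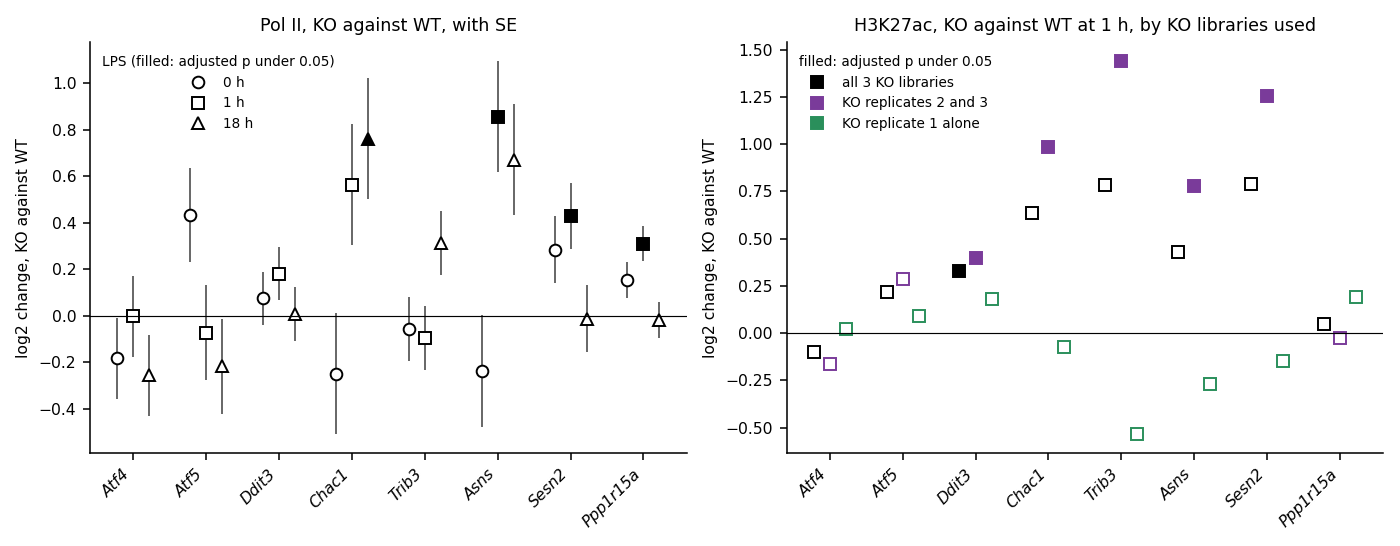
Left, log2 difference of KO and WT in Pol II for each of the 8 genes at 0, 1 and 18 h of LPS with bars of 1 SE. Right, the H3K27ac difference at 1 h with all 3 KO libraries, with replicates 2 and 3 or with replicate 1 alone, filled where called. Trib3 moves from 1.44 with replicates 2 and 3 to −0.53 with replicate 1.

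Asns rose in KO from 21.1, 17.5 and 18.9 at 0 h to 37.4, 84.2 and 91.8 at 1 h (1.40, adjusted p = 2.2e-04) and to the values above at 18 h (1.34, adjusted p = 2.4e-04). In WT it held 28.5, 25.7 and 32.5 at 0 h and 47, 57 and 38.6 at 1 h, a change of 0.56 (adjusted p = 0.063). H3K27ac at Atf4 had no call in any comparison, and its values ran from 693 to 1192 over the 18 libraries.

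Atf5 was the one gene of the 8 called lower for H3K27ac in KO at 0 h, where 0.769% of all genes were called. At Asns every KO library also lay below every WT library at 0 h (values above), but the difference of −0.41 was not called (adjusted p = 0.63). At Ddit3 and Sesn2 every KO library lay above every WT library at 0 h (values above), and neither was called. At Atf5 KO libraries held 328, 321 and 336 normalized tags and WT libraries 446, 593 and 606, a mean 0.60 times that of WT (log2 change −0.71 ± 0.12, adjusted p = 0.0065). After LPS no difference was called, with 583, 569 and 573 in WT and 612, 837 and 590.0 in KO at 1 h, and 632, 577 and 553 in WT and 630.4, 643 and 624 in KO at 18 h. With LPS H3K27ac rose in KO by 1.01 at 1 h (adjusted p = 7.5e-06) and 0.93 at 18 h (adjusted p = 1.1e-05), and in WT there was no call. The interaction was 0.93 ± 0.17 at 1 h (adjusted p = 0.023), where 0.542% of all genes were called, and 0.82 ± 0.17 at 18 h (adjusted p = 0.041), where 0.629% were. Leaving out replicate 2 or 3 lost all 3 calls, with adjusted p of 0.24 and 0.41 for the difference at 0 h, 0.87 and 0.76 for the interaction at 1 h and 0.52 and 0.65 for that at 18 h. The interaction at 18 h was called in 8 of 14 settings, and it was also lost with the replicate number as a block, within 1000 bp of the start, without a filter on low values and where every library compared had to hold a region. KO libraries were deeper than WT libraries, and the part of depth in these differences was not tested.

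The extent of the region bears on this value. At 0 h the H3K27ac region over the start of Atf5 was 12.8 to 12.9 kb long in KO and held 925 to 947 normalized tags, whereas in WT it was 5.8 to 7.94 kb long and held 720.1 to 761. The region total was therefore not lower in KO, and the density was 72.3 to 73.3 normalized tags per kb against 94.5 to 131 in WT. With LPS the WT region was longer, at 15.2 to 16.4 kb at 1 h and 13.5 to 15.6 kb at 18 h. It then held 1747 to 1878 and 1583 to 1725 normalized tags, so the region total rose in WT as well. In KO it held 2013 to 3225 and 1731 to 2093. H3K27ac within 2500 bp of the starts of Nup62 and Il4i1, which lie in the same region, was also lower in KO at 0 h, by −0.72 and −0.71. Their interactions were called too, at 0.94 and 0.93 at 1 h (adjusted p = 0.019 for both). At 18 h both were 0.84 (adjusted p = 0.032). How the tags were laid out inside the longer region cannot be read from region values. Marker lists also moved with genotype at 0 h. The 6 neutrophil and progenitor markers summed to 162 to 179 for H3K27ac in KO and 72.4 to 86.4 in WT, with 4 of them at 0 in both, and to 39.3 to 45.3 and 15.9 to 22.6 for Pol II, with 5 and 4 at 0. The 4 B cell markers summed to 170 to 243 for H3K27ac in KO and 262 to 287 in WT, with 3 at 0 in both. Their part in the differences at 0 h was not tested.

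Regions within 20 kb of the 8 genes were tested on their own. There were 26 for Pol II and 26 for H3K27ac, and calls on regions needed a log2 change above 1 or below −1 beside an adjusted p under 0.05. LPS in WT called 11 of 21 tested Pol II regions at 1 h and 7 of 25 at 18 h, where 49.9% and 31.1% of all regions were called. A Pol II region 2200 bp upstream of Sesn2 (chr4:132512701-132516958) followed the gene, with means of 127, 17.8 and 346 in WT and 158, 20.4 and 359 in KO at 0, 1 and 18 h. Between genotypes, 0 of 23, 2 of 21 and 1 of 25 Pol II regions were called at 0, 1 and 18 h, where 2.27%, 8.59% and 6.17% of all regions were. The adjusted p alone, without the log2 limit, was passed by 3 of 23, 10 of 21 and 9 of 25. The share of all regions that passed it is not given here, so these counts have no background beside them. At 18 h the region 1507 bp past the end of Asns (chr6:7669872-7673662) held 46.2, 41.5 and 50.6 in KO and 31.5, 0 and 14.5 in WT (1.37, adjusted p = 0.0051). Without replicate 2 it was 0.87 (adjusted p = 0.023), under the limit of 1, and without replicate 3 the adjusted p was 0.099. At 1 h a region 11691 bp past the end of Chac1 (chr2:119366072-119373748) held 6.87, 21.5 and 18.5 in KO and 81.2, 67.5 and 35.9 in WT (−1.47, adjusted p = 3.0e-04), and −0.99 (adjusted p = 0.019) without replicate 1. The other called at 1 h, 17816 bp past the end of Atf5 (chr7:44791766-44794440), was listed at 0 in all WT libraries and held 13.6, 10.4 and 8.84 in KO. It entered the comparison only through KO, so no p is given and its values are a description. Without replicate 1 it fell under the limit of 1.

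For H3K27ac, 0 of 26, 1 of 22 and 1 of 23 regions were called between genotypes at 0, 1 and 18 h, where 1.85%, 14.1% and 3.74% of all regions were. The adjusted p alone was passed by 0 of 26, 9 of 22 and 2 of 23, again with no share of all regions to read them against. The region called at 18 h lies 11299 bp upstream of Atf4 (chr15:80237048-80243885) and held 252, 158 and 146 in KO and 89.1, 76 and 82.2 in WT (1.04, adjusted p = 0.0066). Without KO replicate 1 at 1 and 18 h it was 0.81 (adjusted p = 0.0041), under the limit of 1, and without replicate 2 or 3 the adjusted p was 0.10 and 0.086. That called at 1 h lies 635 bp past the end of Trib3 (chr2:152334739-152336787), was listed at 0 in all WT libraries and held 7.77, 34.4 and 28.9 in KO. It too entered only through KO and is given as a description, and it was not called without replicate 2 or 3. The KO libraries at 1 h held 23.6 to 47.5 M tags and those of WT 13.5 to 20.9 M, and the part of depth was not tested.

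Other genes of the pathway were taken as 5 lists, and their Pol II was read beside that of the 8 genes. At 18 h in WT 13 of 19 tested regulators other than the 8 genes were higher and 4 lower, as were 8 and 1 of 13 tRNA synthetases, 6 and 4 of 16 amino acid transport and synthesis genes, 6 and 3 of 13 eIF2 kinases and factors, and 17 and 1 of 26 genes of the XBP1 and chaperone branch, where 33.3% of all genes were higher and 33.3% lower. At 1 h in WT the higher and lower genes were 6 and 11 of 19, 1 and 8 of 13, 3 and 7 of 15, 3 and 9 of 13, and 3 and 21 of 26 in the same order, where 18.6% of all genes were higher and 68.4% lower. The genes that rose most at 18 h were Wars, a tRNA synthetase (77.2 to 635 normalized tags, 2.89, adjusted p = 1.2e-13), and Cars (2.30, adjusted p = 5.5e-09). At 1 h they were Nupr1, a stress regulator (70.4 to 1974, 4.65, adjusted p = 2.3e-15), and Slc7a11, the cystine transporter (166 to 1617, 3.21, adjusted p = 6.6e-17). The deepest falls were at Sesn1 (−3.93) and Vegfa (−3.88) at 1 h and Trib1 (−2.29) and Sesn1 (−2.27) at 18 h.

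Between genotypes, 6 of 16 genes of the amino acid list were higher in KO and 1 lower at 18 h, with a median of 0.28, beside −0.10 for all genes, of which 21.1% were called. Psat1, an enzyme of serine synthesis, held 111 ± 1.9 in KO and 41.5 ± 5.4 in WT (1.24, adjusted p = 1.9e-07), and Slc7a11 1245 ± 48.2 and 540.5 ± 21.5 (1.19, adjusted p = 3.7e-09; SD, n = 3). Of the other regulators 5 of 19 were lower and 0 higher, of the tRNA synthetases 2 of 13 were higher and 0 lower, and each of the other lists had 1 call, shares near that of all genes or below it. At 0 h 3 of 16 amino acid genes were higher and 1 lower, 4 of 26 genes of the XBP1 and chaperone branch were lower, and the other lists had 2 calls in all, where 6.96% of all genes were called. Gpt2, an alanine aminotransferase, was higher in KO (180.3 against 59.8, 1.45, adjusted p = 0.0026) and Atf6, a stress sensor of the endoplasmic reticulum, lower (699.7 against 1260, −0.84, adjusted p = 2.4e-04). At 1 h, where 45.7% of all genes were called and the median gene was 0.24 higher in KO, 6 of 16 amino acid genes were higher and 0 lower, as were 8 and 3 of 19 regulators, 11 and 2 of 26 genes of the XBP1 and chaperone branch, 4 and 1 of 13 eIF2 kinases and factors, and 3 and 1 of 13 tRNA synthetases. These shares are near the background or below it. Of all genes on these lists Gpt2 (1.43, adjusted p = 5.4e-04) and Derl1, a part of the degradation of misfolded proteins (1.41, adjusted p = 2.3e-05), differed most.

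Across the 18 Pol II libraries, as a description of libraries that share 6 groups, Sesn2 varied with Ddit3 (Pearson r = 0.97) and Trib3 (0.94), Chac1 with Trib3 (0.92), and Atf5 with Ppp1r15a (0.91). Atf4 had r of −0.47 to −0.04 with the other 7 genes. The genes most like Chac1 among 10669 were Tent5c (0.98) and Aar2 (0.97). For Ddit3 they were Mbd6 (0.998), which shares its region, and Vps35l (0.99), and for Atf4 Myo19 (0.84) and Dhx37 (0.82).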

How the data were processed

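Bone marrow-derived macrophages were profiled in 42 ChIP-seq libraries, 18 for Pol II, 18 for H3K27ac and 6 inputs. Per the study's methods, Skewer trimmed the reads, HISAT2 (listed as 2.1.0 in the submitters' processing notes) mapped them on mm10, duplicates were removed and HOMER called broad regions. Per the file headers, its style was histone, the peak size was 500, the minimum distance 1000 and the Poisson p threshold 0.001, with no input control. The values deposited by the authors are a signal, the tags of each region per 10 M tags (M, 1000000), listed for each library on its own. The Pol II antibody's catalogue number in the label and in the article differ.

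Region signal was spread evenly over each region and summed over windows of 21924 protein-coding genes (GENCODE M21, GRCm38), of which 54 models shared a symbol and the longest was kept. A gene entered a test if 2 or more of the 3 libraries of either group held a region there. Group means over the 18 libraries of an antibody were fitted with limma 3.58.1 (R 4.3.3, trend) on log2(signal + 10) and called at an adjusted p under 0.05 over all genes. The fit was tested on simulated data. Regions overlapping in any library were merged before regions were tested. Tables and plots used Python 3.11.15, pandas 2.3.3 and matplotlib 3.10.9. Named beside the 8 genes were Nr4a1, overlapping neighbours, the 2 largest rises and 2 largest falls in WT and the 2 largest genotype differences at each time among the pathway lists, and the 2 genes most correlated with Atf4, Ddit3, Chac1 and Ppp1r15a, of which those for Ppp1r15a are not reported here. Members and lists were chosen with earlier results of these data known. Alternatives were another pseudocount, other filters, narrower windows, median centring, quantile normalization, a density floor, a replicate block and leaving out libraries. Leaving out KO replicates 2 and 3 at 1 h with replicate 1 at 18 h, and leaving out libraries for single regions, were chosen after seeing the data.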

Additional observations from a re-analysis of the deposited data

Results flagged for a closer look

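With all libraries, the response to LPS differed between genotypes at 2 of the 8 genes by a test of the difference itself. At 1 h the Pol II change at Asns was −0.73 (WT) and 0.37 (KO), an interaction of 1.09 ± 0.34 (SE, adjusted p = 0.033), where 18.5% of all genes were called, so 1 of 8 is no more than the background. The values behind it are low, with 1 of 3 WT libraries at 1 h listed at 0, and 7 of 10 alternatives lost the call. H3K27ac at Atf5 rose in KO and was not called in WT, with an interaction of 0.93 ± 0.17 at 1 h (adjusted p = 0.023) and 0.82 ± 0.17 at 18 h (adjusted p = 0.041), where 0.542% and 0.629% of all genes were called. At Atf5 the genotypes differed at 0 h, where the H3K27ac region was longer in KO. The tags of the whole region rose with LPS in WT as well, as given above. Nup62 and Il4i1, which lie in the same region, had interactions of 0.94 and 0.93 at 1 h and 0.84 at 18 h. The calls at Atf5 were lost without replicate 2 or 3. That at 18 h was called in 8 of 14 settings. Which KO libraries entered the fit changed this number. For H3K27ac at 1 h the interaction was called at 5 genes without KO replicate 1 at 1 and 18 h, where 47.8% of all genes were called, at 6 without replicate 1 in all groups, where 40.4% were, and at 1 with replicate 1 as the lone KO library at 1 h, where 2.33% were.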

How the results depend on the processing

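Of the changes of single genes under the alternatives, 1504 kept direction and side of the threshold, 84 that were called in neither fit changed sign, 60 passed it newly, 50 no longer passed, and 12 that were called in at least 1 of the fits reversed. Counts of called genes were within 1.5 times in 171 cases and moved in 55. For Pol II, KO against WT had 0, 3 and 1 calls at 0, 1 and 18 h and the interactions 1 and 0. In this fit 6.96%, 45.7% and 21.1% of all genes were called for the genotypes and 18.5% and 14.8% for the interactions. The shares of all genes called for Pol II under the alternatives are not given here, so the counts under them are a description. Median centring gave 1 and 3 for the genotypes at 1 and 18 h and 0 and 2 for the interactions at 1 and 18 h, and turned the LPS change at 1 h to 0.46 (Atf4), 0.66 (Chac1), 0.14 (Trib3) and 0.070 (Asns) in WT and 0.41 (Atf4) in KO. Quantile normalization gave 0 for the genotypes and the interaction at 1 h, and turned Trib3 to 0.64 and Asns to 0.37 in WT and Trib3 to 0.36 in KO. Without a filter or with a pseudocount of 1 the genotypes at 18 h and the interaction at 1 h had 0 calls, as had the genotypes at 18 h with the density floor and the interaction at 1 h where all libraries had to hold the gene. The narrow window gave 1, 0 and 1 for the genotypes at 0 and 18 h and the interaction at 18 h, and turned Sesn2 at 18 h of LPS to −0.66 in WT and −0.66 in KO.

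For H3K27ac, median centring gave 0 calls for the genotypes at 1 h. The narrow window gave 5 instead of 3 calls for LPS at 1 h in WT, and the narrow window, no filter and the filter on all libraries gave 0 for the interaction at 18 h. Shares of all genes are given below only for fits with libraries left out, so these counts have no background beside them. With libraries left out, the LPS change in KO at 1 h ran from −0.79 (KO replicate 1 as the lone library) to 1.21 at Trib3 and from −0.91 to 0.49 at Sesn2. On adjusted p alone, 25 instead of 15 of the 26 H3K27ac regions near the genes were called in any comparison. The share of all regions called in any comparison is not given for either rule. With libraries left out, Pol II counts ran from 0 to 1, 1 to 3 and 0 to 1 for the genotypes at 0, 1 and 18 h and 0 to 1 for both interactions. H3K27ac counts ran from 0 to 1, 0 to 5 and 0 to 1 for the genotypes, 1 to 5 for LPS at 1 h in WT, 4 to 7 in KO, and 0 to 6 and 0 to 2 for the interactions. The share of all genes called moved with them, for the genotypes at 1 h from 7.35% with KO replicate 1 as the lone library to 59.9% without KO replicate 1 at 1 and 18 h. In the latter setting LPS at 1 h in WT had 32.4% of all genes higher and 38.2% lower, against 25.3% and 29.3% with all libraries. The spread is shared by all groups, so leaving out KO libraries also moves WT counts.

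Libraries of the same replicate number did not deviate together (r of −0.072 to 0.107 for Pol II and −0.432 to 0.078 for H3K27ac), so the numbers were not taken as pairs. With the replicate block, Pol II for the genotypes at 18 h had 0 calls (Chac1, adjusted p = 0.057) and the H3K27ac interaction at 18 h had 0 (Atf5, adjusted p = 0.065), and no other count of called genes moved by over 1.5 times. The cause of these changes was not tested. Regions were listed only above the caller's threshold, so values under it could not be compared.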
